A study of Homo sapiens with 6 samples.

Results

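Rods in which no transcript of TMEM176A or TMEM176B was counted were examined in single-cell RNA sequencing of human retinal organoid fragments. Members were chosen by their counts of unique molecular identifiers (UMIs, which count captured transcripts). A member had at least 3 NRL UMIs, more NRL than PDE6H UMIs, at least 1 UMI over NR2E3, ROM1, RCVRN and PDC, and 0 UMIs of TMEM176A and TMEM176B. The rule left 3366 members among 43757 kept cells (7.69%), 2927 of them cultured and 439 transplanted. It read the values of those 8 genes, so their levels in members are a description. The cells passing the same gate with at least 1 TMEM176 UMI (7184 cells, called TMEM176-positive rods below) and cones chosen by a mirror-image rule on PDE6H, also without a TMEM176 UMI (2476 cells), served as comparison.

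The organoids were grown from human embryonic stem cells of the established line WA09, with a tdTomato reporter for the photoreceptor gene CRX. Organoids were 113 to 126 days old. Their fragments were either kept in culture (cultured samples) or injected under the retina of normal dog eyes (transplanted samples), and both were taken 3 days later. The experiment was run independently 3 times, and each run (a Set) gave a cultured and a transplanted sample from the same organoid batch. Each group thus has n = 3, all from the same line.

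Rods are the photoreceptors of dim light. Their fate is set by NRL, a basic leucine zipper transcription factor, which acts with the nuclear receptor NR2E3 to hold cone genes down, and with the homeodomain factor CRX to raise the genes of the rod outer segment. ROM1 is a protein of the outer segment disc rim, recoverin (RCVRN) a calcium sensor of photoreceptors, and phosducin (PDC) a binding partner of the transducin beta and gamma subunits. TMEM176A and TMEM176B encode a pair of related membrane proteins and overlap at their ends on chromosome 7 (TMEM176B at chr7:150791285-150801360 on the minus strand, TMEM176A at chr7:150800403-150805120 on the plus strand, GRCh38).

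The 6 libraries held between 6850189 and 108222149 UMIs, and the members' summed counts between 69819 and 7015103 UMIs. Transplanted 2 was the smallest, with 15 members. Levels are given as CPM, the usual measure that scales a gene's UMIs to the same total in every sample. In transplanted 2 a count of 3 equals 43.0 CPM, against 0.428 to 3.70 CPM in the other samples. A value of 0 in transplanted 2 therefore shows only that a gene lay under about that level. Values of 14.3, 28.6 and 43.0 CPM there are 1, 2 and 3 UMIs. Set 1 differed from the others in its gene content, and 412 tested genes had no UMI in members of either Set 1 sample. At most 54 kept barcodes were shared by a pair of libraries, and none of these was a member in both.

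In every Set, rods without a TMEM176 UMI took up less of the transplanted than of the cultured sample. They made up 8.35%, 10.6% and 15.9% of kept cells in cultured samples 1, 2 and 3 and 2.86%, 2.16% and 4.17% in transplanted samples 1, 2 and 3. The groups did not overlap, with means of 11.6% ± 3.88 (SD, n = 3) and 3.06% ± 1.02 (SD, n = 3). The difference, transplanted minus cultured, was -8.57 percentage points and gave p = 0.10 in a two-sided exact permutation test, which is the smallest p that 3 against 3 samples allow, and 0.20 after Benjamini-Hochberg adjustment over the 4 sample-level measures tested. With each cell thinned to 1000 UMIs before the rule was applied, the cultured shares were 4.52%, 12.1% and 5.09%, the transplanted shares 3.11%, 4.32% and 6.81%, and the groups overlapped (exact permutation p = 0.50).

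The NRL gate alone did not separate the groups, as rods passing it were 18.9%, 33.4% and 19.0% of cultured and 22.1%, 24.5% and 28.0% of transplanted cells. Of these gated rods, 44.2%, 31.8% and 83.6% had no TMEM176 UMI in cultured samples 1, 2 and 3, against 12.9%, 8.82% and 14.9% in transplanted samples 1, 2 and 3. The groups did not overlap and differed by -41.0 percentage points, transplanted minus cultured (53.2% ± 27.0 against 12.2% ± 3.09, SD, n = 3 each; exact permutation p = 0.10, adjusted 0.20). The exact 95% binomial interval was 5.02% to 14.1% for the 170 gated rods of transplanted 2 and 79.3% to 87.2% for the 359 of cultured 3, and these intervals cover counting error only. After thinning to 1000 UMIs the cultured shares were 69.8%, 76.4% and 97.0% and the transplanted shares 40.2%, 39.5% and 53.2%, still without overlap.

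**Figure D1:**
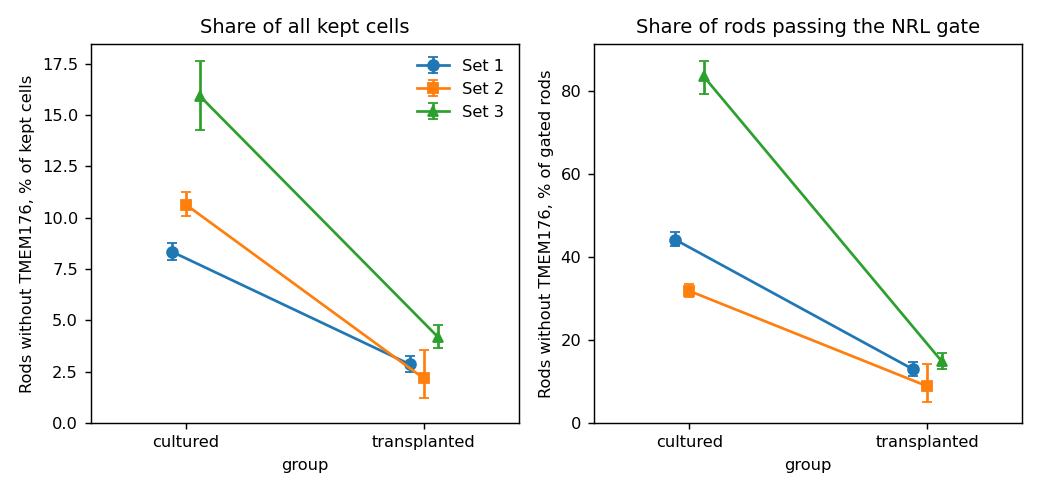
Rods without a TMEM176 UMI as a percentage of all kept cells (left) and of the rods passing the NRL gate (right), by group. Points are samples joined within a Set, bars are exact 95% binomial intervals, and every Set has its lower point in the transplanted group (8.35%, 10.6% and 15.9% against 2.86%, 2.16% and 4.17% of kept cells).

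The absence of a TMEM176 UMI depended on how deeply a cell was read, so a member is a rod in which TMEM176 was not counted rather than a rod shown to lack it. In cultured 2, 69.6% of gated rods with 1000 to under 2000 UMIs had none, against 14.7% of those with 8000 UMIs or more. In cultured 3 the same bands held 90.1% and 60.6%, and in transplanted 1 they held 32.1% and 4.67%. Cultured samples lay above transplanted samples in each of the 4 bands. Members had a median of 3273, 3969 and 3682.5 UMIs per cell in culture and 2298, 4593 and 3791 after transplantation, while TMEM176-positive rods had 4575.5 to 10516 and 5292 to 6615. The summed TMEM176 level of all gated rods stood at 246, 181 and 35.7 CPM in culture and at 691, 837 and 561 CPM after transplantation. Cells outside the rod gate moved with it. They held 113, 73.0 and 16.8 CPM in culture and 396, 146 and 289.6 CPM after transplantation, and 22.3%, 16.0% and 4.19% of them against 46.8%, 20.4% and 27.0% had a TMEM176 UMI. The part of free RNA in these counts was not tested.

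**Figure D2:**
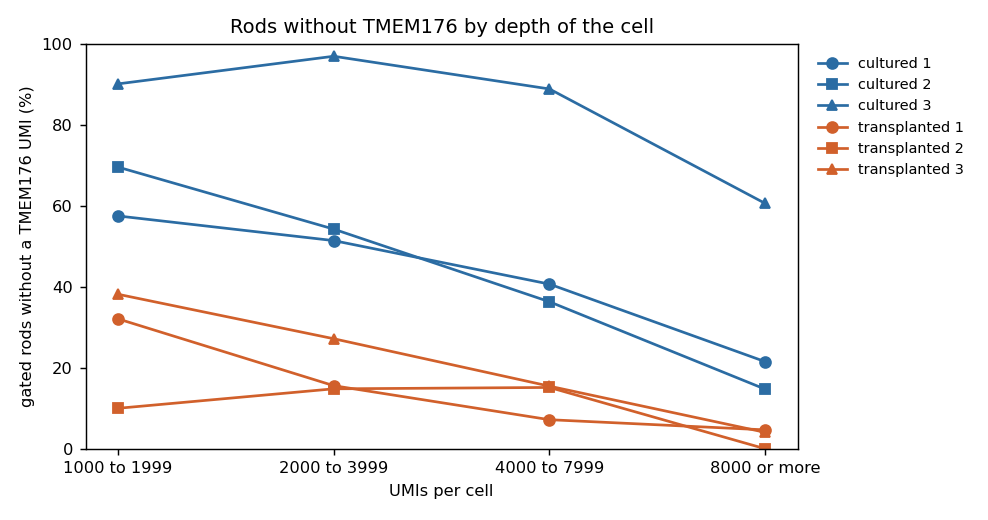
Share of gated rods without a TMEM176 UMI (y axis, percent) in 4 bands of UMIs per cell (x axis), with 1 line per sample. The 3 cultured lines lie above the 3 transplanted lines in each band, and 5 of the 6 lines are lower in the deepest band than in the shallowest by more than 20 points.

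Members carried rod marker genes. Their 5 rod markers summed to 4325, 6103 and 3747 CPM in culture and 4038, 5729 and 6355 CPM after transplantation, against 1499 to 3980.2 CPM in all other kept cells. The other kept cells include the TMEM176-positive rods, whose sums were 3489 to 6155 CPM. These 5 genes were read by the rule. CRX stood at 93.9, 243 and 496 CPM in cultured and 83.9, 429.7 and 284 CPM in transplanted members.

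Markers of other cell types were also read in members. The 8 Müller glia markers summed to 529.9 to 4828 CPM, below the other cells in each sample (1308 to 5994 CPM). The 6 cone markers summed to 28.6 to 190.2 CPM against 361 to 809 CPM in other cells, with PDE6H limited by the rule. The 6 bipolar cell markers summed to 168, 493 and 551 CPM in cultured and 147, 258 and 375 CPM in transplanted members, above the other cells in the cultured samples (113, 275 and 258 CPM) and in transplanted 3 (336 CPM). The 6 myeloid markers summed to 0 to 3.70 CPM. The 8 progenitor markers, genes of dividing cells, summed to 1007, 176 and 167 CPM in cultured and 190.0, 0 and 116 CPM in transplanted members, so cultured 1 stood apart. There, 469 members had at least 2 such UMIs at a median depth of 4814 UMIs, and 809 had none at a median depth of 2498 UMIs.

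There were 523 members with exactly 3 NRL UMIs and 768 cells with 2, and 1924 gated rods with exactly 1 TMEM176 UMI. In cultured 2, cells with 2 NRL UMIs held 470.3 CPM of RCVRN, members with 3 held 670.1 CPM and all members 1974 CPM. In cultured 3, CRX stood at 489 CPM in cells with 2 NRL UMIs, 411 CPM in members with 3 and 496 CPM in all members, so it followed no order there. On the TMEM176 side, gated rods of cultured 2 with exactly 1 TMEM176 UMI held 1834 CPM of RCVRN and 231 CPM of CRX, against 243 CPM of CRX in members. The median member carried 6, 14 and 5 NRL UMIs in culture and 5, 10 and 8 after transplantation.

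The gene leading the members over all other kept cells was PCARE, which encodes an actin regulator of the photoreceptor cilium needed for making outer segment discs. The 20 leading genes were ranked by the lowest of the 6 sample folds, and since the rule chose the cells on their counts these folds carry no test. PCARE stood at 23.1, 29.9 and 31.3 CPM in cultured and 54.3, 100.3 and 115 CPM in transplanted members, 2.14 to 3.02 times the level of other cells in the same sample. These other cells include the TMEM176-positive rods, so the folds set members against a mixture that holds rods. TMEM176-positive rods had 19.7, 19.3 and 26.9 CPM of PCARE in culture and 47.6, 54.1 and 76.2 CPM after transplantation. Phototransduction genes of rods were among the leaders. GNAT1, the alpha subunit of rod transducin, was 2.08 to 3.65 times higher, CNGB1, a subunit of the rod cyclic nucleotide-gated channel, 1.73 to 3.18 times, and PDE6B, a catalytic subunit of the rod phosphodiesterase, 1.56 to 2.70 times. GNAT1 reached only 17.7 to 100.3 CPM, and after thinning to 1000 UMIs 2.07%, 9.27% and 5.0% of cultured members had a GNAT1 UMI, against 0.781%, 1.30% and 0% of cones. Unthinned, the shares were 6.49%, 26.7% and 17.0% of cultured members (median depth 3273, 3969 and 3682.5 UMIs) and 2.76%, 6.88% and 6.86% of cultured cones (3240, 8898 and 7137.5 UMIs).

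Among the rule's genes, NRL was 1.85 to 4.05 times, NR2E3 2.05 to 3.51 times and PDC 1.92 to 2.29 times the level of other cells. Other leaders were MYO9A, an unconventional myosin (1.85 to 2.86 times), SYTL4, a synaptotagmin-like protein (1.77 to 2.17 times), and CABP5, a calcium-binding protein known from bipolar cells (1.48 to 3.05 times). PCA3, a noncoding RNA transcribed antisense within PRUNE2, was up to 3.26 times higher and PRUNE2 itself 1.49 to 2.87 times. AL096803.2, LINC01915, TMEM244, GPR160, EPB41L2, AL451062.1, PAG1 and MRLN made up the rest, with lowest folds of 1.47 to 1.86. Genes of the photoreceptor lineage that rods and cones share differed less, such as CRX (1.13 to 2.21 times) and OTX2 (1.42 to 1.84 times).

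**Figure D3:**
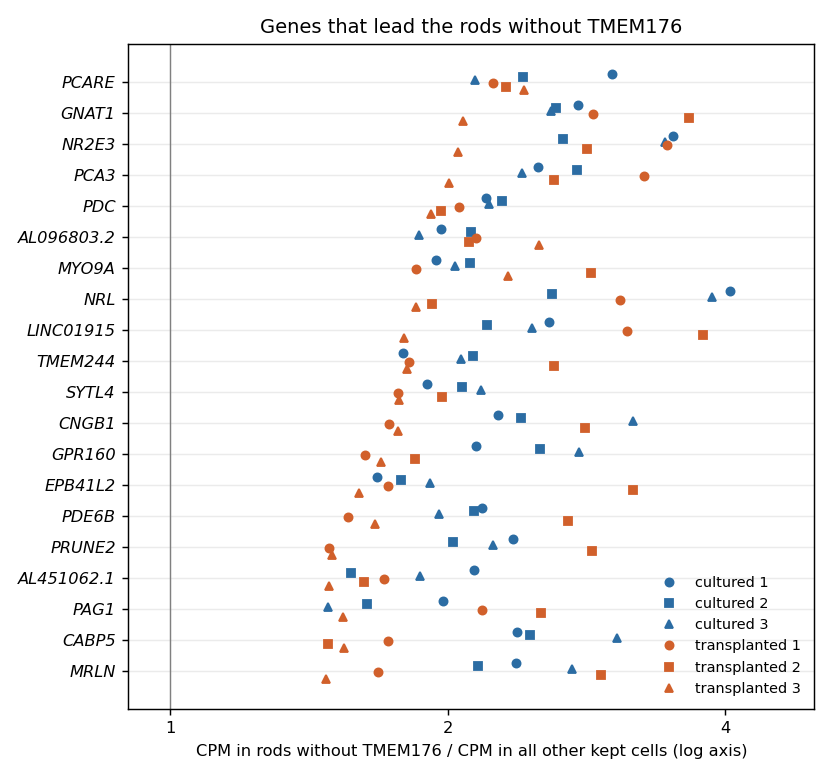
Ratio of CPM in members to CPM in all other kept cells (x axis, log scale) for the 20 leading genes, 1 point per sample. All points lie to the right of a ratio of 1, from 1.47 for MRLN to 4.05 for NRL, and PCARE keeps at least 2.14 in every sample.

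The stretch upstream of PCARE and of CNGB1 is shown because both genes lead the members and both stretches hold the letters of a CRX and of an NRL motif. The sequences are the 250 bases before the annotated start in RefSeq (GRCh38.p14), on the gene's strand, with capitals marking TAATCC (a CRX core) and TGCTGA (an NRL motif arm) or its reverse complement TCAGCA. PCARE lies at chr2:29060976-29074261 on the minus strand in GENCODE release 29. Its window, chr2:29074524-29074773, was placed from the RefSeq start and does not adjoin that span. The CNGB1 window is chr16:57971129-57971378 on the minus strand.
PCARE: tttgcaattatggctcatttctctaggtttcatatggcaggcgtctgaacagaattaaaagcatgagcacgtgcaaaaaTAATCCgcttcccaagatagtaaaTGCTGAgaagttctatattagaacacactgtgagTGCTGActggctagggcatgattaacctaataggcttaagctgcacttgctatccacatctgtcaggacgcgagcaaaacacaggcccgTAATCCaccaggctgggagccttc
CNGB1: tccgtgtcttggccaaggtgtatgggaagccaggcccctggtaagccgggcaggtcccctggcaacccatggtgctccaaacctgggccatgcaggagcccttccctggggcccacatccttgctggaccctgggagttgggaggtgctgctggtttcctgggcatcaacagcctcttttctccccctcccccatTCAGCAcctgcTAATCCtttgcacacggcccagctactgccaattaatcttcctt
PCARE held 2 copies of each motif, and CNGB1 held 1 of each. Searched on both strands, TAATCC was in 5.62% of 35116 RefSeq windows of this length and TGCTGA in 14.0%. Of 25 windows belonging to the 16 leading genes that could be matched, 4 held TAATCC (those of CNGB1, EPB41L2, PCARE and TMEM244) and 6 held TGCTGA. A match describes letters and not a bound site.

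Against TMEM176-positive rods of the same samples, few genes differed by much. The highest lowest-sample fold belonged to the noncoding AL627171.2 (1.36 to 2.27 times higher in members), followed by GRIK1, a kainate receptor subunit (1.30 to 1.63 times). GCNT1, CRLF3, VPS13C, SOX6 and CRNKL1 had lowest folds of 1.17 to 1.24, and AC211433.1 one of 1.28. Lower in members, beside the TMEM176 genes that the rule fixed, were PDE6H, at 179, 165 and 116 CPM in cultured and 56.7, 14.3 and 109.8 CPM in transplanted members against 257 to 637 CPM in TMEM176-positive rods, and OLFM1, B3GAT2, TSPAN7, CRABP2 and PLEKHB1. CRABP2, a retinoic acid binding protein, stood at 65.5 to 200.1 CPM in members and 115 to 343 CPM in TMEM176-positive rods.

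Against cones without a TMEM176 UMI, the rule's genes NR2E3, NRL and ROM1 were higher in members by lowest folds of 5.14, 4.33 and 3.90. PRUNE2 (3.08 times), the seizure-related SEZ6L (2.54 times), SYTL4 (2.30 times), PCA3 (2.32 times) and FABP7, a fatty acid binding protein (2.21 times), followed by their lowest folds. GABRR2, a GABA receptor subunit, stood at 4.42 to 28.6 CPM in members and 23.6 to 242 CPM in cones, and DPYSL3, a growth cone protein, at 11.1 to 169 CPM against 78.6 to 563 CPM. FMN2, VXN, MCTP1, FAM135B and SGCD were lower in members as well, with lowest folds of 2.36 to 2.56 where a count under 3 was taken at the 3-count floor. The 2.36 of MCTP1, FAM135B and SGCD was set by that floor in transplanted 1 and is no measured fold. The same holds in transplanted 2 for the lowest fold of VXN, set by the floor of members. There, the lowest folds of NR2E3, ROM1 and SYTL4 were likewise set by the floor of cones. The cones of transplanted 2 were 7 cells.

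Variation among members could be ranked for abundant transcripts only. With each cell thinned to 1000 UMIs, the variance of a gene's count over its mean was ranked by its lowest sample among 252 genes with a mean of at least 0.2 UMIs in every sample, where the median of the lowest ratio was 0.992. The nuclear noncoding RNA MALAT1 led with ratios of 6.70 to 32.1, followed by the ferritin heavy chain FTH1 (1.86 to 5.88). MT-CO2, MT-ATP6, MT-ND3, MT-ND2, MT-CO1 and MT-CYB, all mitochondrially encoded, had lowest ratios of 1.45 to 1.70. The photoreceptor genes in the first 12 were NRL (1.51 to 2.92) and RCVRN (1.34 to 3.05), both read by the rule, and FTL and H3F3B completed them. The median share of mitochondrial UMIs per member was 1.81%, 3.18% and 1.10% in culture and 4.79%, 3.02% and 2.76% after transplantation, and the groups overlapped (2.03% ± 1.06 against 3.52% ± 1.11, SD, n = 3; exact permutation p = 0.30).

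For the contrast of transplanted and cultured members, counts were summed per sample. Groups were compared within Sets by edgeR's quasi-likelihood test with Benjamini-Hochberg adjustment. Members were 44.2%, 31.8% and 83.6% of gated rods in cultured samples 1, 2 and 3, and 12.9%, 8.82% and 14.9% in transplanted samples 1, 2 and 3. The rule thus took unlike shares of the rods, and selection by it cannot be told apart here from a change within cells. Of 12941 genes tested, 87 passed an adjusted p of 0.05 (0.672%), 25 higher (0.193%) and 62 lower (0.479%) in transplanted members. Positive log2 changes are higher in transplanted members, and ± beside one is its standard error. Of the 87 genes, 74 had the same sign in all 3 Sets, and 31 had groups that did not overlap in CPM as counted, with 0 in transplanted 2 taken as 0, which held for 751 of all tested genes (5.8%; 2.24% higher and 3.56% lower). In 38 of the 62 lower genes, transplanted 2 had no UMI. The calls rest on the pairing by Set, since without it edgeR called none (76 genes at an unadjusted p under 0.05, 1111 with the pairing), and DESeq2 with the pairing called 12. Without Set 1, 3 genes were called, without Set 2 113 and without Set 3 42. The median log2 change of all tested genes was -0.09.

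Among called genes with a mean of at least 30 CPM in the higher group and the same sign in all 3 Sets, H19, an imprinted noncoding RNA of the fetus, rose most. It stood at 21.8, 4.70 and 5.41 CPM in cultured and 263, 43.0 and 39.0 CPM in transplanted members. The groups did not overlap, but the 43.0 CPM of transplanted 2 is 3 UMIs. The log2 change was 3.29 ± 0.39 (edgeR adjusted p = 6.77e-13), and 2.94 without Set 1 (adjusted p = 0.295). All other kept cells held 20.9, 6.20 and 6.31 CPM in culture and 156, 51.9 and 44.9 CPM after transplantation, so H19 was higher there too, and the part of free RNA was not tested. MMP2-AS1, an antisense RNA, rose by 2.39 ± 0.56 and the noncoding AL451062.1 by 2.05 ± 0.42. C11orf96 rose without overlap (102, 39.9 and 51.1 against 222, 258 and 120.3 CPM; log2 change 1.54 ± 0.33, edgeR adjusted p = 0.00232). GFRA1, a receptor of glial cell line-derived neurotrophic factor, rose by 1.52 ± 0.38, also without overlap, and had 0.996 without Set 3, where it did not pass. ATP6V0D2, a subunit of the vacuolar proton pump, HKDC1, a hexokinase domain protein, and FXYD3, a regulator of the sodium pump, rose by 1.41 to 1.80, and HKDC1 had 0.93 without Set 1, where it did not pass.

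DCT, an enzyme of melanin synthesis, stood at 166, 84.7 and 106 CPM in cultured and 353, 401 and 216 CPM in transplanted members. The groups did not overlap (log2 change 1.36 ± 0.35, edgeR adjusted p = 0.0244). DCT did not pass when any 1 of the 3 Sets was left out. DCT is also a pigment epithelium marker, and all other kept cells held 148, 96.8 and 96.0 CPM of it in culture and 244, 247 and 256 CPM after transplantation. Of the other pigment markers in members, PMEL stood at 1.87, 4.70 and 1.80 CPM in cultured and 11.1, 0 and 5.28 CPM in transplanted members, and RPE65 had no UMI in transplanted members. The part of free RNA from other cells was not tested.

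Among called genes with a mean of at least 30 CPM in the higher group and the same sign in 3 Sets, the largest fall was in TTR, the carrier of thyroid hormone and retinol-binding protein made by pigment epithelium. TTR stood at 759, 16.4 and 5.41 CPM in cultured and 32.1, 0 and 2.11 CPM in transplanted members, so nearly all of its signal was in cultured 1 and the groups overlapped. Its log2 change was -4.25 ± 0.64 (edgeR adjusted p = 2.04e-07), with -0.95 in Set 3, and without Set 1 it was too low to be tested. In Set 1, other kept cells held 1116 CPM of TTR in culture and 815 CPM after transplantation, and TMEM176-positive rods 459 and 698 CPM. The part of free RNA was not tested. NPB, a neuropeptide precursor, fell from 35.6, 36.5 and 21.6 CPM to 2.47, 0 and 3.17 CPM (log2 change -3.37 ± 0.62), where the 0 of transplanted 2 has no weight since its floor lies above the cultured levels. CYP1B1, a cytochrome P450, fell by 2.78 on the log2 scale (86.4, 87.2 and 16.8 against 9.87, 14.3 and 4.22 CPM). In all other kept cells the mean of NPB also fell, from 44.0 to 5.60 CPM, and that of CYP1B1 from 88.1 to 13.1 CPM. PEG10, an imprinted gene derived from a retrotransposon, stood at 185, 80.1 and 353 CPM in cultured and 48.1, 14.3 and 42.2 CPM in transplanted members (log2 change -2.49 ± 0.40, edgeR adjusted p = 1.35e-06). All other kept cells held 250, 96.4 and 507 CPM of PEG10 in culture and 67.4, 72.5 and 71.2 CPM after transplantation. PEG10 was the only named gene of the 33 that could be tested without Set 1 to pass there (adjusted p = 0.0372), and it passed without Set 2 and without Set 3. S100A10, the annexin partner, fell by 2.32 (393, 158 and 54.1 against 53.05, 0 and 25.3 CPM). IGFBP7, CD4 and CPA6 fell by 2.27 to 2.38, with overlap, and IGFBP7 had -0.72 without Set 1, where it did not pass.

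**Figure D4:**
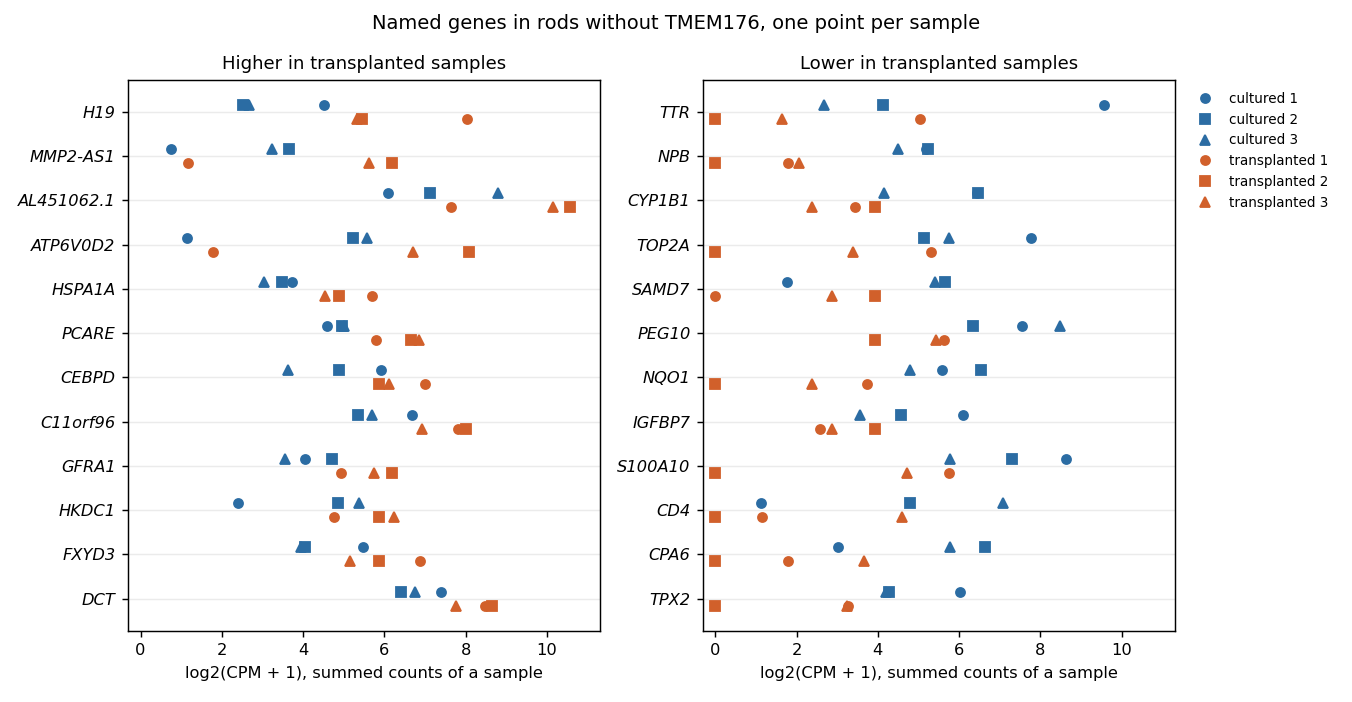
Level of the 12 genes with the largest rise (left) and the 12 with the largest fall (right) among called genes with at least 30 CPM in the higher group that changed the same way in all Sets, as log2(CPM + 1) on the x axis with 1 point per sample. H19, HSPA1A, PCARE, C11orf96, GFRA1 and DCT have all 3 transplanted points to the right of all 3 cultured points, and zeros at the left edge of the right panel are mostly transplanted 2. In transplanted 2, H19 and HSPA1A rest on 3 and 2 UMIs.

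Among photoreceptor genes, PCARE rose and the transducin gamma genes of rods (GNGT1) and of cones (GNGT2) fell. PCARE went from 28.1 ± 4.35 to 89.9 ± 31.7 CPM (SD, n = 3 each) without overlap, a log2 change of 1.58 ± 0.33 (edgeR adjusted p = 0.0012). It was 1.79 without Set 1 and 1.29 without Set 3, neither of which passed. Other kept cells held 7.67, 12.4 and 14.6 CPM of PCARE in culture and 24.2, 43.3 and 47.5 CPM after transplantation. In cones without a TMEM176 UMI its log2 change was 1.69 ± 0.66, which did not pass (edgeR adjusted p = 0.392). GNGT1, the gamma subunit of rod transducin, stood at 28.1, 82.3 and 93.2 CPM in cultured and 4.93, 43.0 and 23.2 CPM in transplanted members, overlapping by transplanted 2. Its log2 change was -1.93 ± 0.40 (edgeR adjusted p = 0.00114) and it did not pass without Set 1 or without Set 3.

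GNGT2, the gamma subunit of cone transducin, stood at 166, 316 and 665 CPM in cultured and 49.3, 143 and 140.4 CPM in transplanted members. The groups did not overlap (log2 change -1.82 ± 0.38, edgeR adjusted p = 0.00151), and it was called by DESeq2 as well (adjusted p = 0.00475). Cones without a TMEM176 UMI held 366, 313 and 751 CPM of GNGT2 in culture and 102, 53.9 and 95.8 CPM after transplantation (-2.48 ± 0.60, edgeR adjusted p = 0.0225). In members, GNGT2 was the only called gene of the 8 tested for cone phototransduction, whose median log2 change was -0.73. That median includes PDE6H, which the rule read, so the change of PDE6H within members is not interpreted. SAMD7, a repressor of genes foreign to photoreceptors, fell by 2.55 (2.38, 49.0 and 41.5 against 0, 14.3 and 6.33 CPM). It was 1 of 18 tested photoreceptor transcription factors to pass, with a list median of -0.23, and 0.14 in Set 2. In that list CRX had a log2 change of -0.14 ± 0.36 and THRB, a thyroid hormone receptor of cone development, one of -0.92 ± 0.35, and neither passed. NRL and NR2E3 are in the list but were read by the rule, so their change within members is not interpreted.

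Of the 16 rod phototransduction genes tested, only GNGT1 passed. The list's median log2 change was 0.22, but -0.31, -0.09 and 0.30 in Sets 1, 2 and 3. AIPL1, a chaperone of the rod phosphodiesterase, stood at 174, 436 and 289 CPM in cultured and 245, 645 and 711 CPM in transplanted members (0.75 ± 0.39), and CNGB1 had a log2 change of 0.60 ± 0.33. The genes of that list not tested included PDE6A and the arrestin SAG. Of 20 tested outer segment and cilium genes, PCARE alone passed, and RP1, a microtubule protein of the axoneme, had the lowest value (-1.11 ± 0.41, edgeR adjusted p = 0.26). None of 19 photoreceptor synapse genes passed (median -0.17). The 20 neurite and cytoskeleton genes had a median of -0.56, with -0.78, -1.61 and 0.35 in Sets 1, 2 and 3. Of these, DPYSL3 fell by 1.83 (63.8, 160.4 and 169 against 11.1, 71.6 and 52.8 CPM, edgeR adjusted p = 3.87e-04). GAP43, a growth cone protein at 93.4, 94.1 and 54.1 against 34.5, 28.6 and 32.7 CPM, did not pass (edgeR adjusted p = 0.090).

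Among stress genes, calls went in both directions. HSPA1A, an inducible heat shock chaperone, stood at 12.3, 10.3 and 7.21 CPM in cultured and 50.6, 28.6 and 22.2 CPM in transplanted members (log2 change 1.80 ± 0.44, edgeR adjusted p = 0.0143). These groups did not overlap, but the 28.6 CPM of transplanted 2 is 2 UMIs. HSPA1A shares most of its sequence with HSPA1B, whose log2 change was 1.07 ± 0.41. CRYAB, a small heat shock protein also used as a Müller glia marker, fell by 1.32 (234, 108 and 69.7 against 93.8, 43.0 and 28.5 CPM). HSPA1A and CRYAB were the only calls among 15 heat shock genes (median 0.20, with -0.10, -0.56 and 0.76 in Sets 1, 2 and 3). HSPA1A did not pass without the members that held a progenitor UMI (adjusted p = 0.41), nor did CRYAB (0.55).

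CEBPD, a transcription factor of the acute response, rose by 1.55 ± 0.34 (59.2, 28.7 and 11.4 against 127, 57.3 and 68.6 CPM). CEBPD was the only call among 14 genes of STAT3 signalling (median 0.26, with -0.06, -0.12 and 0.70 in Sets 1, 2 and 3). Without Set 3 its log2 change was 1.003 and it did not pass. Other kept cells held 65.3, 37.7 and 17.3 CPM of CEBPD in culture and 136, 197 and 124 CPM after transplantation. SOCS3, the feedback inhibitor in that list, had a log2 change of 1.26 ± 0.39 (edgeR adjusted p = 0.097). None of 22 immediate early genes passed, though 18 had a positive log2 change, against 41.9% of all tested genes. Their median was 0.64, with 0.55, 0.09 and 0.96 in Sets 1, 2 and 3, and DUSP2, a phosphatase of MAP kinases, went from 31.3, 21.8 and 22.2 to 50.6, 71.6 and 57.0 CPM without overlap (1.10 ± 0.35, edgeR adjusted p = 0.12). Of 11 MHC class I genes none passed (median 0.43, and -1.03 in Set 2), nor did any of 18 genes of the unfolded protein response (median 0.30, and -0.89 in Set 2).

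In the list of p53 targets and death genes (19 tested, median 0.07, and -0.97 in Set 2), GADD45B passed. It stood at 52.7, 34.4 and 22.8 CPM in cultured and 90.1, 28.6 and 215 CPM in transplanted members. The value rested on transplanted 3, as the log2 change of 1.61 became 0.54 without Set 3. DDIT3, a transcription factor of the integrated stress response, stood at 188, 211 and 179.7 CPM in cultured and 343, 315 and 344 CPM in transplanted members. These groups did not overlap, but its log2 change of 0.78 ± 0.36 did not pass (edgeR adjusted p = 0.51).

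NRF2 targets defend cells against oxidants. Of 14 tested in members, 2 were called lower after transplantation and 1 had a positive log2 change. Over all tested genes 0.479% were called lower and 41.9% were positive. The list's median was -0.83 (-0.87, -2.38 and -0.23 in Sets 1, 2 and 3). NQO1, a quinone reductase, stood at 46.8, 91.5 and 26.4 CPM in cultured and 12.3, 0 and 4.22 CPM in transplanted members (log2 change -2.41 ± 0.46, edgeR adjusted p = 1.58e-04), and it did not pass without Set 1. Cultured 3 lies under the floor of transplanted 2, so that sample cannot be placed below it. The cystine transporter SLC7A11 (-1.62 ± 0.50) and PIR (-1.46 ± 0.50) did not pass (edgeR adjusted p = 0.098 and 0.18).

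Genes of energy supply gave 1 call. The 13 mitochondrially encoded genes had a median log2 change of 0.69 (1.07, -0.40 and 1.09 in Sets 1, 2 and 3). Of these 13, 12 were positive, against 41.9% of all tested genes, and none passed. Together they summed to 18580.2, 34959.9 and 12889.7 CPM in cultured and 50920, 31109 and 30475 CPM in transplanted members, with transplanted 2 below cultured 2. The 49 nuclear genes of the respiratory chain had a median of -0.55 with 6 positive, and 1 passed (0.672% of all tested genes did). That gene was NDUFB1, a subunit of complex I (449, 156 and 759 against 263, 57.3 and 167 CPM; log2 change -1.48 ± 0.41, edgeR adjusted p = 0.0477). None of 26 glycolysis and hypoxia genes (median -0.12), 21 cholesterol synthesis genes (median -0.26) or 10 transferrin and iron genes (median -0.50) passed. In Set 3 these medians were 0.42, 0.01 and 0.12.

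Cell cycle genes held the most calls of any list. Of 16 tested, 6 were called lower (TOP2A, NUSAP1, TPX2, MKI67, UBE2C and CENPF) and 1 had a positive log2 change, with a median of -1.11. Over all tested genes 0.479% were called lower and 41.9% had a positive log2 change. In Set 3, CENPF had 0.16 and UBE2C -0.03. TOP2A, a topoisomerase of dividing cells, stood at 217, 34.2 and 52.9 CPM in cultured and 38.2, 0 and 9.50 CPM in transplanted members (log2 change -2.55 ± 0.41, edgeR adjusted p = 1.53e-06). TOP2A fell outside members too. All other kept cells held 224, 49.8 and 94.8 CPM in culture and 54.4, 21.9 and 16.9 CPM after transplantation. In TMEM176-positive rods its log2 change was -2.71 ± 0.25. Members with at least 1 progenitor-marker UMI were 45.9%, 21.4% and 26.7% of cultured and 12.1%, 0% and 17.4% of transplanted members. The list's median in Set 3 was -0.11, and MKI67 had -0.62 and TPX2 -1.21 without Set 1, where neither passed. Among 18 genes of matrix and secreted factors (median -0.28), CLU, clusterin, fell by 1.62 (706, 235 and 421 against 465, 28.6 and 94.98 CPM). CLU is a Müller glia marker as well, it did not pass when any 1 of the 3 Sets was left out, and the Müller marker sum of members went from 973 to 4788 CPM in cultured to 529.9 to 4828 CPM in transplanted members.

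**Figure D5:**
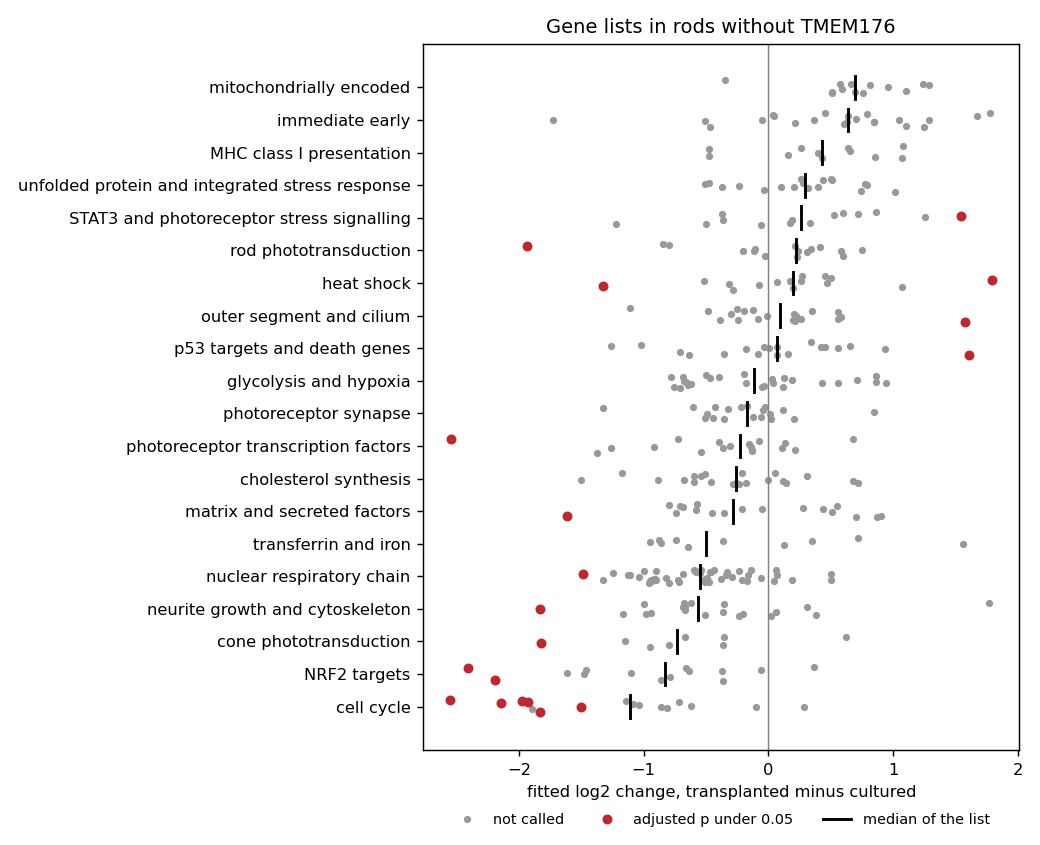
Fitted log2 change, transplanted minus cultured, of each tested gene in 20 gene lists (points, 1 per gene) with the list's median (black bar) and called genes in red. Medians run from -1.11 for cell cycle genes to 0.69 for mitochondrially encoded genes, and the median of all tested genes is -0.09.

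Whether members responded differently from other photoreceptors of the same libraries was tested as an interaction. Against TMEM176-positive rods, 3 of 17059 genes differed in response (0.0176%), GLOD5, RBP4 and PDE6H. RBP4, the retinol carrier of plasma, stood at 40.2, 35.9 and 7.21 CPM in cultured and 21.0, 0 and 7.39 CPM in transplanted members, against 73.4, 66.4 and 8.34 CPM in cultured and 104, 89.1 and 47.7 CPM in transplanted TMEM176-positive rods. The difference in log2 change was -1.80 ± 0.33 (edgeR adjusted p = 0.00591), and it did not pass without Set 1 or without Set 3. GLOD5 rested on at most 15 UMIs per sample in members, and PDE6H is read by the rule.

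The other genes named for their response in members did not pass that test. PCARE had a log2 change of 1.58 in members and 1.55 ± 0.21 in TMEM176-positive rods (difference -0.08 ± 0.23). NQO1 had -2.41 and -2.44 ± 0.32 (difference -0.31 ± 0.44), and GNGT2 had -1.82 and -1.57 ± 0.27 (difference -0.25 ± 0.28). The difference was 0.62 ± 0.26 for H19 and -0.66 ± 0.32 for HSPA1A. Estimates lay further apart for HKDC1 (1.48 and 0.50 ± 0.26, difference 0.92 ± 0.28), IGFBP7 (-2.38 and -0.50 ± 0.92, difference -2.35 ± 1.26) and TTR (-4.25 and -1.09 ± 2.30, difference -3.45 ± 2.002), with wide errors for the last pair. A difference that misses the threshold does not show that both kinds of rods responded alike. TMEM176-positive rods had 1180 called genes of 19226 tested (6.14%) in their own comparison, from deeper sums.

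Against cones, 27 of 12151 genes differed in response (0.222%), 6 with a higher and 21 with a lower response in members. GALM, an enzyme of galactose metabolism, stood at 9.36, 21.1 and 42.1 CPM in cultured and 13.6, 28.6 and 52.8 CPM in transplanted members, and at 5.86, 14.6 and 37.6 against 14.6, 350.2 and 331 CPM in cones. The difference in log2 change was -2.86 ± 0.36 (edgeR adjusted p = 4.12e-05), and it did not pass without Set 2 or without Set 3. STC1, a secreted glycoprotein hormone, and ERO1B, an oxidase of the endoplasmic reticulum, differed by -1.99 ± 0.38 and -1.91 ± 0.36. PLCG2, LINC01619 and ARRDC3 differed by -1.84 to -1.58. EYA2, a transcriptional coactivator, had the opposite sign (1.63 ± 0.32), with 7.32, 117 and 86.5 CPM in cultured and 11.1, 429.7 and 94.98 CPM in transplanted members. Cones held 15.5, 411 and 310 CPM of EYA2 in culture and 20.4, 539 and 87.4 CPM after transplantation. The change of EYA2 in members alone did not pass (edgeR adjusted p = 0.34). Cones had 7 cells in transplanted 2, and without Set 2 no gene differed, while without Set 1 357 did.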

How the data were processed

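The authors deposited raw UMI counts per gene and barcode for 6 samples (10x 3' v3.1 libraries), with no normalization. Per the file headers, Cell Ranger 6.0.2 was used for Set 1 and 7.1.0 for Sets 2 and 3. The build was GRCh38, per the submitters' processing notes. Whether intronic reads were counted is not given in the sources used here. Barcodes were kept (43757 of 51749) if they held 1000 UMIs or more over 500 genes or more, with mitochondrial UMIs at 20% or below. Scrublet in Scanpy 1.11.5 called 0 to 2 doublets per sample and so did not work, and removal of the highest scores (0.8% per 1000 cells) was an alternative only. Each matrix lists 36601 genes, of which 34645 matched GENCODE release 29.

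Counts were summed per sample and tested in edgeR 4.0.16 (R 4.3.3; filterByExpr, TMM, robust quasi-likelihood fit, Set as a block, Benjamini-Hochberg adjustment). Set numbers pair the samples, since both samples of a Set came from the same organoid batch, per the series' design text. Deviations from the group means correlated at 0.805, 0.308 and 0.475 within Sets 1, 2 and 3. DESeq2 1.42.0 was an alternative. Differences in response were tested with each library as a block. Replicates are the 3 independent experiments. Scripts were tested on simulated data.

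Members and gene lists were chosen with earlier results of these data known. Named genes were the 12 largest rises and 12 largest falls among called genes with at least 30 CPM in the higher group and the same sign in 3 Sets, up to 4 genes of each list by p, CRX and the rule's genes. For differences in response they were the 8 genes with the smallest p. Against other cells they were 20 genes at 50 CPM or more by lowest fold, 8 each way for the comparisons with rods and cones, and 12 for variation. Genes named outside this rule (DDIT3, DUSP2, OTX2, UBE2C and CENPF, for example) come from the fixed lists. Some genes of the lists are not reported here.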

Additional observations from a re-analysis of the deposited data

Results flagged for a closer look

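These results have a difference between groups of cells under the same contrast, tested as an interaction in edgeR, and their causes were not tested. Against TMEM176-positive rods, 3 genes differed in response. GLOD5 had a difference in log2 change of 4.52, RBP4 of -1.80 and PDE6H, which the member rule reads, of -1.78. Against cones, 27 genes differed in response. Those with the smallest p were GALM at -2.86, PLCG2 at -1.58, LINC01619 at -1.84, ERO1B at -1.91, ARRDC3 at -1.69, STC1 at -1.99, ASIC2 at 1.99 and EYA2 at 1.63. GLOD5 was read at 0, 7 and 6 UMIs in cultured and 0, 0 and 15 UMIs in transplanted members.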

How the results depend on the processing

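For the transplant response of member rods, the count of 87 called genes was 0 without the replicate block, also with transplanted 2 left out (78 at an unadjusted p under 0.05; chosen after seeing the data), 12 with DESeq2, 35 without the filter on low counts, 4 with equal cells per sample, 18 with each cell thinned, 131 with NRL of at least 5 UMIs and 1270 with TMEM176-positive rods added. Leaving out a replicate gave 3 to 113. It was within 1.5 times the reported count with RLE factors (103), the stricter cell filter (67), NRL of at least 2 UMIs (101), the host filter (123), doublet scores removed (88) and, added after seeing the data, without members holding progenitor UMIs (83). The 34 named called genes kept their call with RLE factors and with the host filter, and none of them did without the block. Under DESeq2 19 of the 34 could be read, with thinning 24, with equal cells 6 and without progenitor UMIs 30. Genes differing in response from TMEM176-positive rods (3) were 10 without the filter, 1 with equal cells, 0 without the replicate block and 7 to 14 with a replicate left out. Those differing from cones (27) were 96 without the filter, 0 without the replicate block (55 unadjusted) and 0 to 357 with a replicate left out. The ASIC2, difference in response from cones, was 1.99 and ranged from -0.034 without replicate 3, a reversed sign, to 2.17 without replicate 1. The difference in median UMIs per member (-80.8) ranged from -433 to 366 with a replicate left out. A sign-flip test that keeps the pairing cannot go below 0.25 with 3 pairs, which is what both shares gave. The causes were not tested. Depth limits what transplanted 2 can show, with 15 members and 69819 UMIs.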

Other observations

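Called genes outside the lists included neuronal, nuclear and matrix genes. CALB1, the calcium buffer calbindin, stood at 159, 139 and 54.1 CPM in cultured and 51.8, 0 and 10.6 CPM in transplanted members (log2 change -2.13, edgeR adjusted p = 3.5e-05). VSX1, a bipolar cell transcription factor, stood at 13.3, 18.7 and 22.2 against 1.23, 0 and 5.28 CPM (-2.48). NEAT1, a nuclear noncoding RNA, stood at 386, 432 and 369 against 244, 85.9 and 102 CPM without overlap (-1.51), and VCAN, a matrix proteoglycan, at 81.8, 77.8 and 58.9 against 34.5, 0 and 23.2 CPM (-1.46). Among the rises, CAMK2B, a calcium-dependent kinase of neurons, stood at 25.01, 34.2 and 42.1 against 71.5, 115 and 65.4 CPM (1.20, edgeR adjusted p = 0.0386), and FAM210A, a mitochondrial protein, at 24.0, 40.6 and 33.1 against 62.9, 85.9 and 88.6 CPM (1.33). ABCA1, the cholesterol exporter, stood at 31.6, 162 and 159 against 54.3, 831 and 279 CPM (1.27), with overlap. These genes were chosen after their values were seen.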
